A study of Mus musculus with 8 samples.

Results

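The genes described here encode receptors for the transmitters glutamate, GABA, glycine and acetylcholine, most of them subunits of ligand-gated ion channels, measured by RNA sequencing in mouse molars in which the Notch ligand gene Jagged1 had been deleted from the epithelium. Members were taken by symbol and by no measured value: every protein-coding gene whose symbol begins with Gria, Grid, Grik or Grin and a digit, Gabr and its subunit letter and digit, or Chrn, or that reads as Grm, Gabbr, Glra or Glrb with its number where it has one. This gave 65 genes of the 43629 identifiers in the count files. They comprise 26 glutamate receptor genes (4 AMPA, 5 kainate, 7 NMDA, 2 delta and 8 metabotropic), 17 GABA receptor genes (12 GABA-A, 3 GABA-rho and 2 GABA-B), 5 glycine receptor genes, 16 nicotinic acetylcholine receptor genes (5 of the muscle type and 11 neuronal) and Grid2ip. Grid2ip matches by its symbol although it encodes a binding partner of a delta receptor. Another 2 symbols that match, Grin1os and Chrna1os, belong to antisense RNAs and were not counted as members. The muscarinic receptor genes Chrm1 to Chrm5 and 4 GABA-A subunit genes with other symbols (Gabrd, Gabre, Gabrp and Gabrq) fall outside the rule and are given as a list of their own.

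The study asked how loss of Jagged1 from the dental epithelium alters the gene expression of the developing molar. The Mutant group held 4 K14Cre;Jagged1fl/fl embryos and the Control group 4 embryos labelled Jagged1fl/fl, which the paper calls WT littermates, all at E18.5. By these labels the Controls carry the floxed alleles too, and the keratin 14 promoter confines Cre to epithelium, so that dental mesenchyme keeps the gene. Each library was made from whole lower first molars, the left and right tooth of 1 embryo being pooled, and the embryos are the replicates (n = 4 per group). Total counts ran from 17327224 to 28613574 in Control and from 24692128 to 29792467 in Mutant. At these depths 3 counts, taken as the limit that a count of 0 allows, correspond to between 0.0998 and 0.166 CPM, and this limit covers counting error only. Here CPM is a gene's count per 1000000 counts of its library, whose size is scaled by TMM factors.

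Transcripts of Jag1, the deleted gene, reached 95.2, 103, 104 and 99.9 CPM in Controls J3, J5, J6 and J7 and 34, 39, 46 and 57.1 CPM in Mutants K14J26, K14J28, K14J29 and K14J30, the order in which embryo values are given throughout. Every Mutant embryo was below every Control embryo (log2 fold change -1.19 ± 0.14, adjusted p = 0.00517 in the quasi-likelihood test of edgeR, adjusted as proposed by Benjamini-Hochberg over all tested genes, which stands behind every adjusted p given here unless DESeq2 is named). The fold change is Mutant over Control, and its error is a standard error.

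Ionotropic glutamate receptors are cation channels of fast excitation, whereas GABA-A and glycine receptors are anion channels of fast inhibition and nicotinic receptors are cation channels opened by acetylcholine at nerve and muscle synapses. Metabotropic glutamate and GABA-B receptors signal through G proteins. Outside the nervous system single subunits of these families are transcribed in epithelia, bone cells and glia, and the teeth of an embryo also receive the first sensory nerve fibres with their Schwann cells.

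Of the 65 members, 35 (53.8%) passed the filter of 10 counts in at least 2 embryos of either group, against 68.3% of all 21551 protein-coding genes. Among those 35, 31 passed through both groups, Chrna1, Gabra2 and Grin1 passed through Control only and Chrna6 through Mutant only, so that for these last 4 the group that carried them through is also the higher one on average. The remaining 30 were not tested. They include 26 members with under 10 counts in every embryo, of which 12 had 1 to 5 counts over all 8 embryos together and Gabra6 and Glra2 had none, and 4 members (Gabra5, Chrna4, Chrna10 and Chrnd) that reached 10 counts in too few embryos. Tested members were rare transcripts, with a median level of 2.33 CPM against 20 CPM over the 17129 genes tested.

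**Figure D1:**
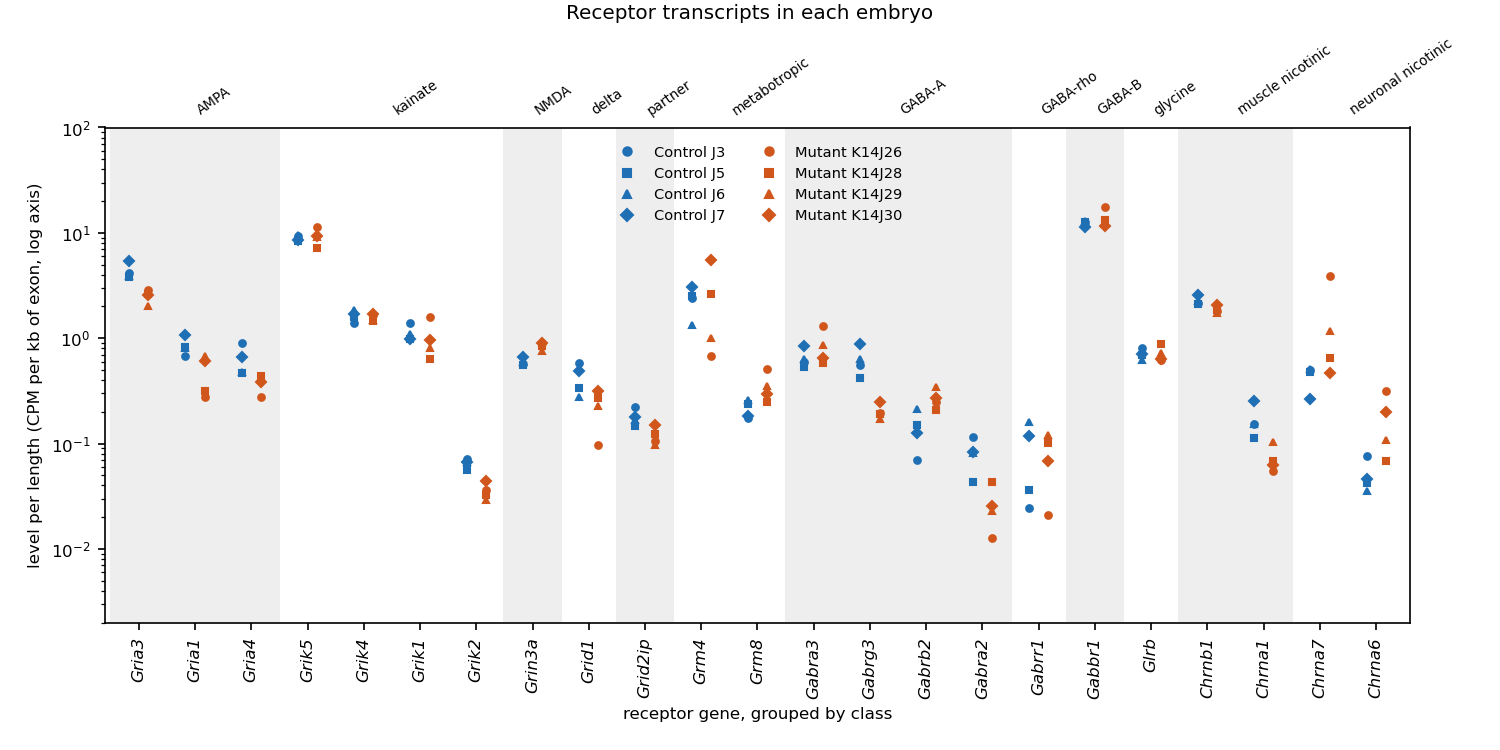
Level of the 23 members whose values are given in full, in CPM per kb of exon on a log axis, with genes grouped by receptor class on the horizontal axis. Each symbol is 1 embryo, blue for Control and orange for Mutant, and Gabbr1 and Grik5 stand highest at 13.0 and 9.10 CPM per kb on average.

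At an adjusted p under 0.05, 1 member was higher in Mutant molars (Grin3a) and 5 were lower (Gria3, Gabrg3, Gabra2, Grik2 and Chrna1). In GRCm38 the annotation places Grin3a (ENSMUSG00000039579) at 49661611 to 49845744 of chromosome 4, Grik2 (ENSMUSG00000056073) at 49094833 to 49788766 of chromosome 10 and Chrna1 (ENSMUSG00000027107) at 73563215 to 73580338 of chromosome 2; positions of the others follow below. The called members are 2.86% and 14.3% of the tested members, beside 9.52% of all tested genes called higher and 6.61% called lower. The study called a gene on its p and on a fold change, with limits of 0.05 and 0.5; these were read here as an unadjusted p and a log2 ratio in either direction. By these criteria 5 members were higher and 9 lower (14.3% and 25.7%), beside 8.33% and 5.85% of all tested genes. Control and Mutant embryos were fully separated for 8 tested members (22.9%), 1 higher and 7 lower, beside 24.2% of all tested genes. The median log2 fold change of the tested members was 0.05 and that of all tested genes 0.01, while the median of its absolute size was 0.51 for the members and 0.22 for all tested genes. Tested members were rarer, at a median of 2.33 CPM against 20 CPM, and fold changes scatter more at low counts. Neither this size nor the shares by the criteria of the study were compared at matched levels. Of the tested members, 19 had a positive and 16 a negative fold change, and 29 had an adjusted p of 0.05 or more.

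**Figure D2:**
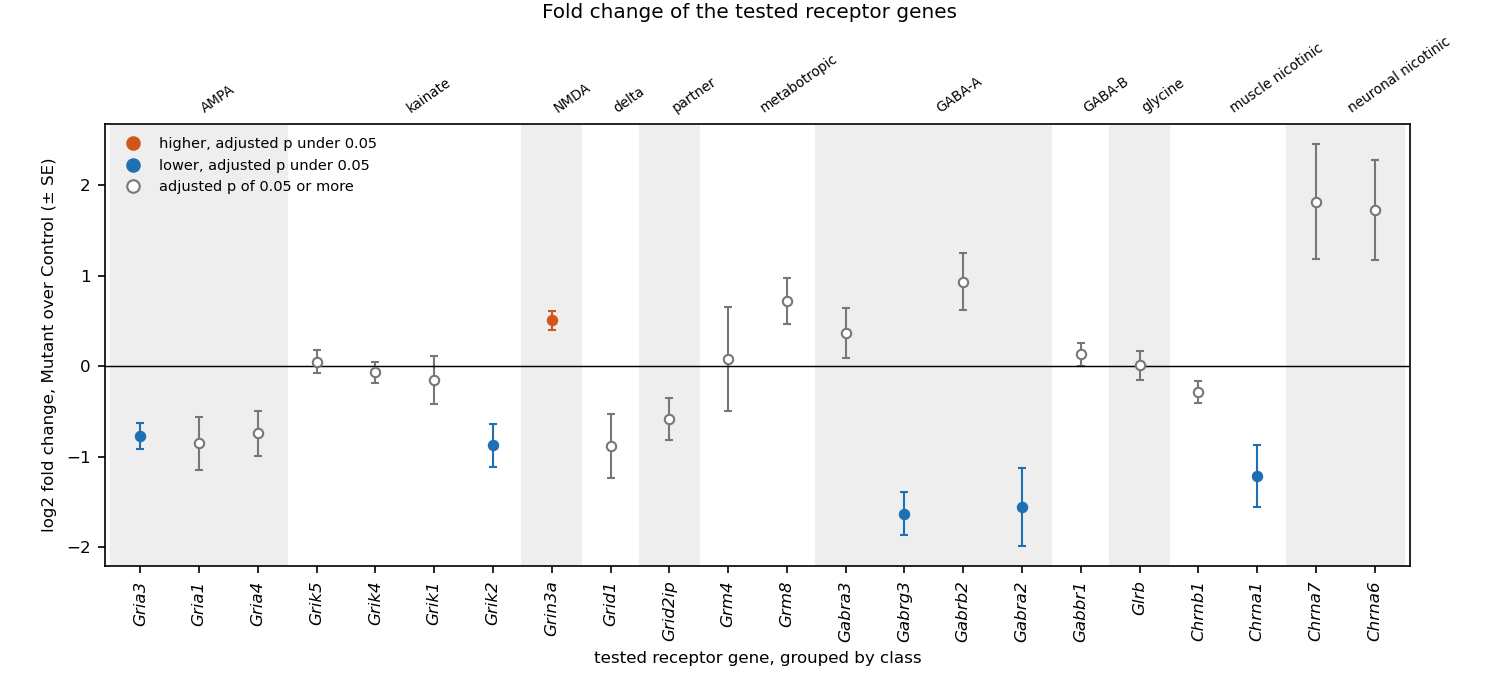
Log2 fold change of the 22 tested members whose values are given in full, Mutant over Control, with bars of 1 SE, grouped by receptor class. Filled blue points are the 5 members called lower, the filled orange point is Grin3a at 0.51, and open points have an adjusted p of 0.05 or more.

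The calls depend on single libraries. Leaving out 1 embryo moved the number of genes called by over 1.5 times for each Control and for Mutants K14J28 and K14J29: from 250 higher and 170 lower without K14J29 to 2479 and 1843 without K14J28, with 300 and 236 without J7, 373 and 287 without J3, 451 and 388 without J5 and 854 and 553 without J6. Among members, 5 were called higher and 3 lower without K14J28, and in the other fits that left out 1 embryo at most 2 and 3. Over all genes, 1631 were called higher and 1133 lower, 59.0% of the called genes being higher; this share was 48.5% with upper-quartile scaling and 44.6% with library size alone. Skeletal muscle transcripts set Controls J6 and J7 apart: the 12 genes of the muscle list summed to 8.14, 18.4, 473 and 234 CPM in Control and 7.69, 15.4, 13.7 and 23.7 CPM in Mutant, with Acta1 the most abundant and the lineage factor Myod1 at 3 counts or fewer in every embryo; 2 of its 11 tested genes, Ckm and Atp2a1, were called lower. Without J6 and J7 together 3 genes were called higher and 4 lower and no member was called, although 3 members were higher and 4 lower by the criteria of the study. With the muscle level of each embryo as a covariate 40 genes were called in each direction and no member, with 2 members higher and 6 lower by the criteria of the study. The transcripts of the enamel proteins Amelx, Ambn and Enam set Mutants K14J26 and K14J29 apart, taking 9.57% and 2.47% of all counts there and at most 0.965% in any other embryo. The part of these differences in the values below was not tested beyond these fits.

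Promoter sequences from the RefSeq promoter table are shown for 3 of the members that fell. The table (GRCm38.p6) holds 46 of the 65 members and 4 of the 6 called members. Sequences and motifs of the other called members are not given. Each line gives the 250 bases before the annotated start, 5′ to 3′ on the strand of the gene. Capitals mark the core letters TGGGAA or their reverse complement TTCCCA, the core recognised by the Notch effector RBPJ, and the palindrome CAGCTG, an E-box of the kind bound by myogenic factors such as MyoD; both strands were searched. Over all 32851 windows of this length, 21.6% hold the RBPJ core and 13.0% hold CAGCTG, and over the 55 windows of the members 25.5% and 10.9% do.
Gabrg3 (chr7:57387216-57387465, minus strand): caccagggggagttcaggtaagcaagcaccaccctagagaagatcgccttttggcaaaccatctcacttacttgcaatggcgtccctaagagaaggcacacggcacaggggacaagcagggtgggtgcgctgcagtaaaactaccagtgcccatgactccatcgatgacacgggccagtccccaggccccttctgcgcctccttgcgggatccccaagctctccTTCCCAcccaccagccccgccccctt
Grik2 (chr10:49788755-49789004, minus strand): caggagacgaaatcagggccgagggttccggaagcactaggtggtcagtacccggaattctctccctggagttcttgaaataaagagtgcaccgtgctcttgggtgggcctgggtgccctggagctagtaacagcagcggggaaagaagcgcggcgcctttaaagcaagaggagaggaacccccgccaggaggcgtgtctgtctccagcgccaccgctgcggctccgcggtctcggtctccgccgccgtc
Chrna1 (chr2:73580339-73580588, minus strand): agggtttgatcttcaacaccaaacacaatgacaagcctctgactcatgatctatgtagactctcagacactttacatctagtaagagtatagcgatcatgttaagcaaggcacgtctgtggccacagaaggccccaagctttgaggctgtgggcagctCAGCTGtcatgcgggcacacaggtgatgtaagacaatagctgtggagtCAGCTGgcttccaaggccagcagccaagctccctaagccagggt
The window of Gabrg3 has 1 match to the RBPJ core, on the opposite strand and beginning 26 bases before the start. That of Chrna1, the agonist-binding subunit of the muscle receptor, has 2 matches to CAGCTG, beginning 92 and 44 bases before the start. That of Grik2 has no match to either motif, which says only that these letters are not in this window. GC content was 60.4% for Gabrg3, 62.8% for Grik2 and 50.8% for Chrna1, against a median of 52.4% over all windows and 59.2% over those of the members.

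Between genes, levels are compared only per length, as CPM per kb of the merged exons of each gene. On this scale the 65 members summed to 43.1, 40.4, 42.0 and 43.7 CPM per kb in Controls and 50.5, 37.8, 38.6 and 42.5 in Mutants. Gabbr1, Grik5 and Gria3 alone made up 60.3% of the mean sum over all embryos. By transmitter, glutamate receptor genes took 51.9% of it, GABA receptor genes 36.4%, nicotinic genes 9.65% and glycine receptor genes 1.71%. The transcripts of these families in the molar thus belonged mostly to a few subunits.

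The AMPA receptor genes encode the 4 subunits of the channel that carries most fast glutamate currents. Gria3 was the most abundant of them at 3.41 CPM per kb on average. Its transcripts reached 40.8, 37.3, 38.5 and 52.9 CPM in Control and 28.4, 25.8, 19.9 and 25.5 CPM in Mutant embryos. All 4 Mutant values were below the lowest Control value, and Control J7 was the highest of the 8. Gria3 fell, from a mean ± SD of 42.4 ± 7.15 CPM in Control to 24.9 ± 3.6 CPM in Mutant (log2 fold change -0.77 ± 0.14, adjusted p = 0.0135, n = 4 per group, edgeR), and it was called without each of the 8 embryos in turn, with adjusted p up to 0.0446. Without Controls J6 and J7 its log2 fold change was -0.65 (adjusted p = 0.133), and with the muscle covariate -0.71 (adjusted p = 0.0783). In bulk molars, fewer cells carrying a transcript and less transcript per cell cannot be told apart, here or for any gene below. Gria3 (ENSMUSG00000001986) lies on chromosome X at 41400854 to 41678601 of GRCm38, and the sexes of the embryos were not used here.

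Gria1 and Gria4, subunits of the same channel, were less abundant at 0.657 and 0.502 CPM per kb. Gria1 gave 4.1, 4.99, 4.88 and 6.49 CPM in Control and 1.68, 1.9, 4.09 and 3.65 CPM in Mutant, and Gria4 5.7, 2.97, 3.01 and 4.19 CPM in Control and 1.73, 2.73, 2.56 and 2.41 CPM in Mutant. For both genes every Mutant embryo lay below every Control embryo, by a narrow margin in Gria1, where Mutant K14J29 was just under Control J3. Both met the criteria of the study but not the adjusted threshold of edgeR (log2 fold change -0.85 ± 0.30, adjusted p = 0.0777 for Gria1; log2 fold change -0.74 ± 0.25, adjusted p = 0.0686 for Gria4), and both passed it in DESeq2, with adjusted p of 0.0278 and 0.0296. Gria2, whose edited subunit makes the channel impermeable to calcium, had 6 to 44 counts per embryo and 0.0457 CPM per kb, and its fold change was positive (log2 fold change 0.53 ± 0.47, adjusted p = 0.446).

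Kainate receptors form from Grik1, Grik2 and Grik3 subunits, which can build channels on their own, and from Grik4 and Grik5, which need one of the former to do so. Grik5 was the most abundant at 9.1 CPM per kb, with 48.3, 42.9, 49.2 and 44.3 CPM in Control and 58.5, 36.9, 47.3 and 48.7 CPM in Mutant embryos. Its groups overlapped, both the highest and the lowest value being Mutant (log2 fold change 0.05 ± 0.13, adjusted p = 0.805 by edgeR), and the sign turned to -0.06 when only library size was scaled, and to -0.06 without K14J26. Grik4 followed at 1.61 CPM per kb, with 8.31, 9.57, 11.1 and 10.2 CPM in Control and 9.9, 8.69, 8.84 and 10.1 CPM in Mutant (log2 fold change -0.07 ± 0.12, adjusted p = 0.716). Of the subunits that can act alone, Grik1 reached 1.06, Grik3 0.645 and Grik2 0.0502 CPM per kb. Grik1 gave 9.3, 6.6, 7.32 and 6.66 CPM in Control and 10.8, 4.26, 5.44 and 6.48 CPM in Mutant, with Mutant embryos at both ends of the range (log2 fold change -0.15 ± 0.27, adjusted p = 0.715; 0.01 without K14J28).

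Grik2 was the least abundant kainate gene and the only one of the 5 that was called. It was counted 17, 18, 17 and 26 times in Control and 10, 13, 11 and 15 times in Mutant embryos, or 0.941, 0.742, 0.882 and 0.878 CPM against 0.481, 0.433, 0.381 and 0.582 CPM. The groups did not overlap, and Grik2 fell (log2 fold change -0.87 ± 0.24, adjusted p = 0.039 by edgeR). Leaving out single embryos gave log2 fold changes from -0.99 to -0.78, but the gene was called in 1 of the 8 such fits, that without Mutant K14J30, the others giving adjusted p from 0.0515 to 0.0985. DESeq2 did not call it (-0.88, adjusted p = 0.0716), nor did the fits without J6 and J7 together (-0.84, adjusted p = 0.217) and with the muscle covariate (-0.83, adjusted p = 0.146), at log2 fold changes close to the one above.

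**Figure D3:**
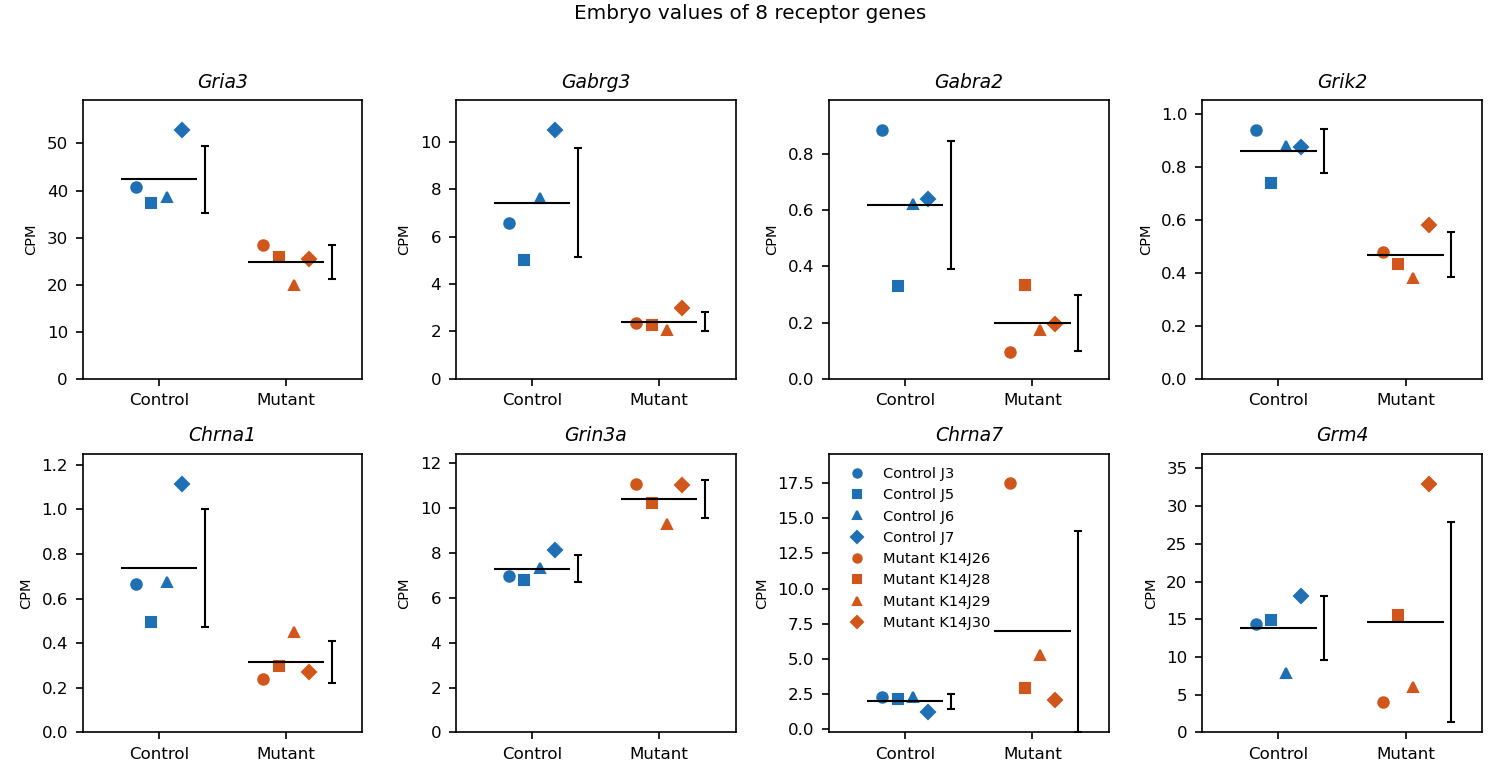
CPM in each embryo for the 6 called members and for Chrna7 and Grm4, the tested members with the highest SD relative to the mean among Mutant embryos; blue symbols are Control and orange symbols Mutant embryos, the line is the group mean and the bar beside it 1 SD (n = 4). Gria3, Gabrg3, Grik2, Chrna1 and Grin3a have separate groups, and Gabra2 values touch at 0.330 and 0.333 CPM.

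NMDA receptors require the Grin1 subunit, which binds glycine, and pair it with glutamate-binding Grin2 or glycine-binding Grin3 subunits; channels with Grin3 pass less calcium. Grin3a had the highest mean of the 7 genes per length over all 8 embryos, at 0.722 CPM per kb, although Grin2d was higher in Controls J3, J5 and J6. Its transcripts reached 6.98, 6.8, 7.32 and 8.14 CPM in Control and 11.1, 10.2, 9.29 and 11 CPM in Mutant embryos, so that each Mutant was above each Control. Grin3a was the one member that rose, from a mean ± SD of 7.31 ± 0.594 CPM in Control to 10.4 ± 0.845 CPM in Mutant (log2 fold change 0.51 ± 0.11, adjusted p = 0.0189, n = 4 per group, edgeR). The call was lost without Control J3 (adjusted p = 0.0584), without Control J5 (adjusted p = 0.0615) and with scaling by library size alone (adjusted p = 0.0612), with log2 fold changes of 0.49, 0.46 and 0.41. It was also lost without J6 and J7 (log2 fold change 0.59, adjusted p = 0.136) and with the muscle covariate (0.57, adjusted p = 0.074).

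Grin2d, a subunit typical of the immature nervous system, was close to Grin3a per length at 0.673 CPM per kb and lay between 3.49 and 5.48 CPM in the 8 embryos (log2 fold change 0.06 ± 0.16, adjusted p = 0.825 by edgeR). Grin1 itself was counted only 4 to 15 times per embryo, at 0.0361 CPM per kb, and passed the filter through Control alone (log2 fold change -0.30 ± 0.39, adjusted p = 0.614). Some 13.5% of its exon bases are shared with the antisense gene Grin1os on the opposite strand, which had at most 1 count. Grin2b ranged from 2 counts in Mutant K14J29 to 49 in Control J7 (log2 fold change -0.65 ± 0.60, adjusted p = 0.471), while Grin2a and Grin2c had 8 counts or fewer in every embryo. Grin3b is uncertain: 32.1% of its exons overlap those of Tmem259 on the opposite strand, a gene at 96.3 to 158 CPM, and the library kit does not mark strand.

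Delta receptors share the glutamate receptor fold and act at synapses through cerebellins, secreted bridging proteins; Grid1 is described here. Grid1 gave 3.49, 2.02, 1.66 and 2.94 CPM in Control and 0.577, 1.63, 1.35 and 1.86 CPM in Mutant. The lowest value was that of K14J26 and the groups overlapped, since K14J30 exceeded Control J6. It met the criteria of the study only (log2 fold change -0.88 ± 0.35, adjusted p = 0.113 by edgeR). Grid2ip, a scaffold protein of delta receptor synapses, gave 1.5, 0.99, 1.14 and 1.22 CPM in Control and 0.721, 0.832, 0.658 and 1.01 CPM in Mutant. Its groups touched, K14J30 lying above Control J5, and it also met the criteria of the study only (log2 fold change -0.58 ± 0.23, adjusted p = 0.111); 9.52% of its exon bases overlap an antisense gene.

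Of the metabotropic glutamate receptor genes, Grm5, which activates phospholipase C, and Grm2, Grm3, Grm6 and Grm7 had under 10 counts in every embryo. Grm4 and Grm8, which were tested, inhibit adenylyl cyclase and usually sit on presynaptic terminals. Grm4 ranked 4th of all members by its mean of 2.38 CPM per kb, with 5.52 CPM per kb in K14J30. Chrnb1, ranked next, was higher than Grm4 in Control J6 and Mutants K14J26 and K14J29. Transcripts of Grm4 reached 14.3, 14.9, 7.94 and 18.1 CPM in Control and 4.04, 15.5, 5.96 and 33 CPM in Mutant embryos. Mutants held both the highest value, in K14J30, and the lowest values, in the enamel-rich K14J26 and K14J29, and the SD of the Mutant group, 13.2 CPM, was close to its mean of 14.6 CPM. No difference between the groups was detectable at this spread (log2 fold change 0.08 ± 0.57, adjusted p = 0.935 by edgeR), and the estimate was -0.69 without K14J30 and -0.11 without Control J6. Grm8 gave 1.72, 2.35, 2.54 and 1.79 CPM in Control and 5.05, 2.46, 3.47 and 2.91 CPM in Mutant. Its highest values were those of K14J26 and K14J29, the lowest embryos for Grm4, K14J28 was below Control J6, and the gene met the criteria of the study but not the adjusted threshold of edgeR (log2 fold change 0.72 ± 0.25, adjusted p = 0.0785). DESeq2 called it (adjusted p = 0.0459), and without K14J28 edgeR did so too, at 0.85 (adjusted p = 0.0336). Without K14J26, its highest embryo, the log2 fold change was 0.49 (adjusted p = 0.13 by edgeR), under the limit of 0.5 in the criteria of the study.

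GABA-A receptors are pentamers, most often of alpha, beta and gamma subunits, the gamma subunit being needed for synaptic clustering and benzodiazepine binding. Of the 12 genes, 2 fell, Gabrg3 and Gabra2. Gabrg3, a gamma subunit, was counted 119, 122, 147 and 311 times in Control and 49, 68, 59 and 77 times in Mutant embryos. This is 6.59, 5.03, 7.63 and 10.5 CPM against 2.36, 2.26, 2.04 and 2.99 CPM, with no overlap, Mutants within a narrow band and Control J7 highest. Gabrg3 fell, from a mean ± SD of 7.44 ± 2.31 CPM in Control to 2.41 ± 0.405 CPM in Mutant (log2 fold change -1.63 ± 0.24, adjusted p = 0.00778, n = 4 per group, edgeR). Gabrg3 was called without each of the 8 embryos in turn, with log2 fold changes from -1.79 to -1.42 (adjusted p up to 0.0382), but not without J6 and J7 together (-1.27, adjusted p = 0.114) nor with the muscle covariate (-1.34, adjusted p = 0.0535).

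Gabra2, an alpha subunit, was counted 16, 8, 12 and 19 times in Control and 2, 10, 5 and 5 times in Mutant embryos, or 0.886, 0.33, 0.623 and 0.642 CPM and 0.0961, 0.333, 0.173 and 0.194 CPM. The groups overlapped, Control J5 lying below Mutant K14J28, and the gene passed the filter through Control only. It fell by the edgeR test (log2 fold change -1.55 ± 0.43, adjusted p = 0.0395), a call kept in 2 of the 8 fits without 1 embryo, those without Control J5 and without Mutant K14J28, and lost in the other 6 with log2 fold changes from -1.55 to -1.35 and adjusted p up to 0.102. With the muscle covariate it was -1.53 (adjusted p = 0.138). Over all 8 embryos Gabra3 had the highest mean per length of the GABA-A genes, at 0.749 CPM per kb, although Gabrg3 was higher in Controls J6 and J7. Gabra3 gave 2.33, 2.1, 2.49 and 3.28 CPM in Control and 5.14, 2.3, 3.36 and 2.52 CPM in Mutant. Its groups overlapped, with the highest value in K14J26 (log2 fold change 0.37 ± 0.28, adjusted p = 0.363; 0.09 without K14J26). Gabrb2, a beta subunit, gave 0.443, 0.948, 1.35 and 0.811 CPM in Control and 1.59, 1.33, 2.18 and 1.71 CPM in Mutant; Control J6 exceeded K14J28, and the gene met the criteria of the study but not the adjusted threshold of edgeR (log2 fold change 0.93 ± 0.31, adjusted p = 0.0686), which it passed in DESeq2 (adjusted p = 0.0366) and, in edgeR, without K14J28 (1.03, adjusted p = 0.0481). Gabra5 had 10 counts or fewer, Gabrg1, Gabrb1 and Gabra6 under 10.

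Many GABA-A genes lie in clusters of subunits. On chromosome 7 Gabrg3 (ENSMUSG00000055026, 56716465 to 57387188, GRCm38) neighbours Gabra5, which was not tested. On chromosome 5 Gabra2 (ENSMUSG00000000560, 70957597 to 71095849) neighbours Gabra4, at 2.99, 2.1, 2.02 and 1.93 CPM in Control and 2.6, 2.16, 3.05 and 1.78 CPM in Mutant (log2 fold change 0.09 ± 0.22, adjusted p = 0.801 by edgeR), and Gabrg1 and Gabrb1, each with 7 counts or fewer. Whether neighbours differ from each other in their response was not tested.

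GABA-B receptors are obligate pairs: Gabbr1 binds GABA, and Gabbr2 brings the pair to the surface and couples it to G proteins. Gabbr1 was the most abundant member of all at 13 CPM per kb, with 98.3, 99, 99.9 and 88 CPM in Control and 136, 101, 94.4 and 90 CPM in Mutant embryos. K14J26 was highest and Control J7 lowest, and the groups overlapped (log2 fold change 0.13 ± 0.12, adjusted p = 0.478 by edgeR); without K14J26 the estimate was -0.01. Gabbr2 was counted 0, 5, 2 and 1 times in Control and 1, 3, 0 and 2 times in Mutant embryos, 0.0106 CPM per kb. Gabbr1 transcripts were thus present in every embryo almost without those of the partner. The rho subunit genes Gabrr1, Gabrr2 and Gabrr3, which form GABA channels of their own in the retina, had at most 8 counts in any embryo. Gabrr1 was the highest of them at 0.0812 CPM per kb, with 1, 2, 7 and 8 counts in Control and 1, 7, 8 and 4 in Mutant.

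Glycine receptors combine ligand-binding alpha subunits with the beta subunit Glrb, which anchors them to gephyrin. Glrb gave 3.77, 3.26, 2.91 and 3.31 CPM in Control and 2.88, 4.06, 3.4 and 2.95 CPM in Mutant, at 0.712 CPM per kb. Its groups overlapped (log2 fold change 0.01 ± 0.16, adjusted p = 0.973 by edgeR), and the sign of this small estimate turned with upper-quartile scaling (-0.03) and with library size alone (-0.08). Of the alpha genes, Glra1 had at most 2 counts in any embryo, Glra3 and Glra4 at most 1 and Glra2 none. No alpha subunit was therefore detectable above the limit set by depth.

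**Figure D4:**
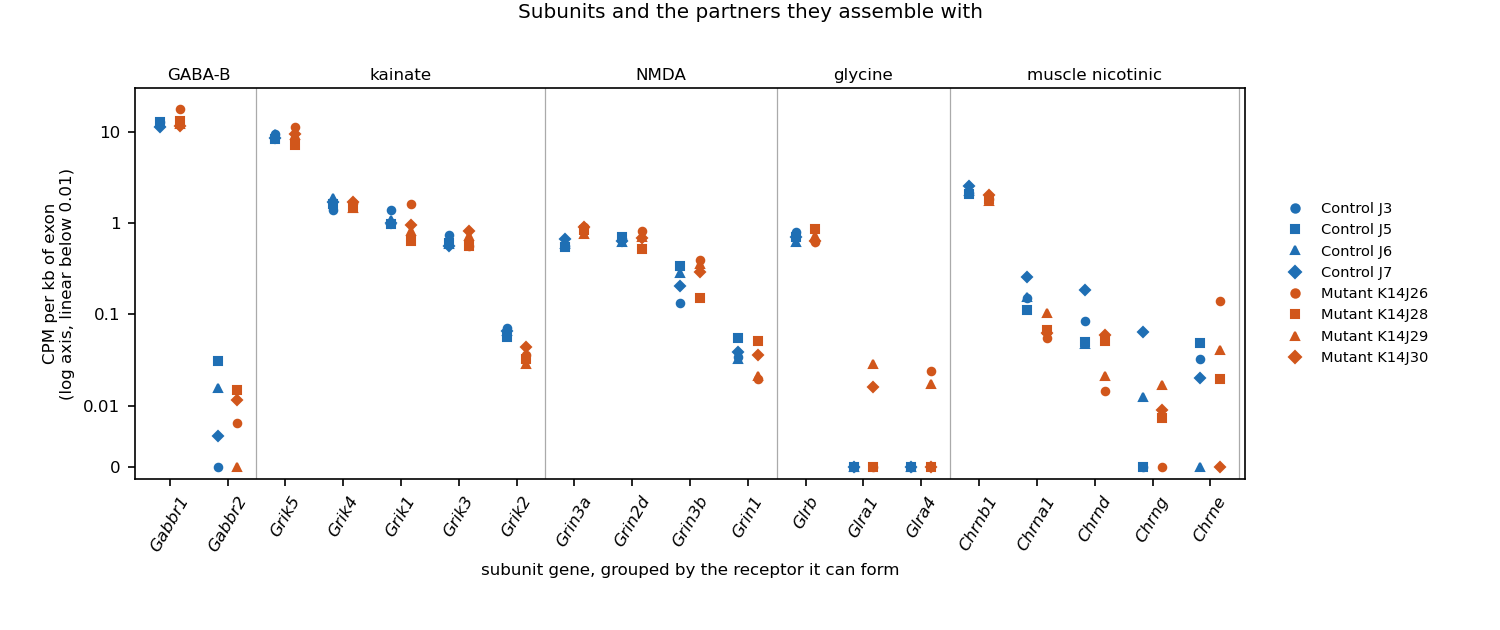
Level of subunit genes and of the subunits they need or assemble with, in CPM per kb of exon on an axis that is logarithmic above 0.01 and linear below; each symbol is 1 embryo, blue for Control and orange for Mutant. Gabbr1, Grin3a, Glrb and Chrnb1 stand far above Gabbr2, Grin1, the Glra genes and the other muscle-type subunits, in both groups.

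The muscle-type nicotinic receptor is built of Chrna1, Chrnb1, Chrnd and, before birth, Chrng, which Chrne later replaces. Chrnb1 was the most abundant of the 5 at 2.06 CPM per kb, with 5.43, 5.32, 5.66 and 6.45 CPM in Control and 4.62, 4.66, 4.37 and 5.2 CPM in Mutant. Every Mutant was below every Control, but the difference was small and did not pass the threshold (log2 fold change -0.28 ± 0.12, adjusted p = 0.137 by edgeR). Chrna1, which carries the acetylcholine site, was counted 12, 12, 13 and 33 times in Control and 5, 9, 13 and 7 times in Mutant embryos, or 0.664, 0.495, 0.674 and 1.11 CPM against 0.24, 0.299, 0.451 and 0.272 CPM. The groups did not overlap and the highest value was that of Control J7. Chrna1 passed the filter through Control only and fell (log2 fold change -1.21 ± 0.35, adjusted p = 0.0437), but it was called in none of the 8 fits without 1 embryo, where adjusted p ran from 0.0579 to 0.124; without J7 the log2 fold change was -0.92. Chrnd was counted 5, 4, 3 and 18 times in Control and 1, 5, 2 and 5 times in Mutant embryos, and Chrng at most 8 times, in both cases most often in J7, 1 of the 2 embryos rich in muscle transcripts; Chrne had at most 5 counts. J6, with the higher summed muscle level, had 3 counts of Chrnd and 1 of Chrng. Genes of the muscle list differed in this order. Myog was at 0.623 CPM in J6 and 1.39 CPM in J7, and Myh3 at 7.37 and 13.6 CPM. Acta1, at 131 CPM in J6 and 52.7 CPM in J7, and Myh8, at 94.8 and 34.2 CPM, were higher in J6. So were Ckm, Tnnt3, Mylpf, Tnni2, Tnnc2 and Atp2a1. What sets the receptor counts of J7 was not tested. Without Controls J6 and J7 together the log2 fold change of Chrna1 was -0.84 (adjusted p = 0.277), and with the muscle covariate it was -0.93 (adjusted p = 0.21).

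Among the 11 neuronal nicotinic genes, Chrna7 was the most abundant at 0.991 CPM per kb; its subunit forms channels of high calcium permeability on its own. Its transcripts reached 2.27, 2.14, 2.28 and 1.18 CPM in Control and 17.5, 2.93, 5.3 and 2.1 CPM in Mutant embryos. K14J26 and K14J29 were the highest, in the order of their enamel transcripts, K14J28 exceeded every Control and K14J30 lay among the Controls. The mean was 1.97 ± 0.529 CPM in Control and 6.96 ± 7.16 CPM in Mutant, and the difference met the criteria of the study but not the adjusted threshold of edgeR (log2 fold change 1.82 ± 0.63, adjusted p = 0.0776). Its size rested on 1 embryo: without K14J26 the log2 fold change was 0.82 (adjusted p = 0.118), whereas the gene was called without K14J28 at 2.07 (adjusted p = 0.0398) and without K14J30 at 2.12 (adjusted p = 0.0474). DESeq2 called it (adjusted p = 0.0463).

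Chrna6, an alpha subunit best known from dopaminergic neurons, was counted 4, 3, 2 and 4 times in Control and 19, 6, 9 and 15 times in Mutant embryos, or 0.222, 0.124, 0.104 and 0.135 CPM and 0.913, 0.2, 0.312 and 0.582 CPM, and passed the filter through Mutant only. The values of K14J26 and K14J30 led, and K14J28 was below Control J3. The criteria of the study were met but not the adjusted threshold (log2 fold change 1.72 ± 0.55, adjusted p = 0.0605 by edgeR). Without K14J28 the gene was called at 1.99 (adjusted p = 0.0203), whereas the other fits without 1 embryo gave adjusted p from 0.0878 to 0.144. Without K14J26 or K14J30 it did not pass the filter and was not fitted. DESeq2 did not call Chrna6 (adjusted p = 0.0522). Chrna5 and Chrnb4, which flank Chrna3 in 1 cluster on chromosome 9, had estimates of 0.81 ± 0.42 and 0.86 ± 0.45 with adjusted p of 0.201 and 0.204, while Chrna3, with which both assemble in autonomic ganglia, had at most 2 counts. Chrnb2 (log2 fold change -0.30 ± 0.28, adjusted p = 0.463) shares 16.3% of its exon bases with Adar on the opposite strand, a gene at 42.4 CPM on average in Control, and Chrna10 shares 39.0% with Art1, so both are uncertain. Chrna4 reached 11 counts at most, and Chrna2, Chrna9 and Chrnb3 at most 2.

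Other genes of these pathways were taken as lists, whose counts of called genes are to be read beside the 9.52% of all tested genes called higher and the 6.61% called lower; whether a list differs from these shares was not tested. Of the 9 receptor genes outside the symbol rule, 6 were tested and none was called, at a median log2 fold change of -0.02; 1 of them, Chrm1, had an unadjusted p under 0.05 (log2 fold change -0.66 ± 0.28, adjusted p = 0.125 by edgeR). Gabrp, the pi subunit of GABA-A receptors in epithelia, gave 1.66, 2.35, 1.14 and 1.72 CPM in Control and 12.9, 1.13, 1.59 and 1.75 CPM in Mutant. As with Chrna7, K14J26 was far above the rest, but for Gabrp the other 3 Mutants were close to the Controls (log2 fold change 1.30 ± 0.76, adjusted p = 0.249). Gabre, the epsilon subunit, was at 5.57 to 8.41 CPM.

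Glutamate receptor partners numbered 35, of which 26 were tested, 3 rose and 1 fell. Cnih2, an AMPA receptor auxiliary protein that slows channel closing, gave 7.31, 7.92, 7.63 and 9.29 CPM in Control and 5.29, 5.49, 4.4 and 4.42 CPM in Mutant. Its groups did not overlap and it fell (log2 fold change -0.72 ± 0.13, adjusted p = 0.014 by edgeR), as Gria3 did. The transmembrane AMPA regulators Cacng2, Cacng7 and Cacng8 had no count in any embryo, whereas Cacng4 held 9.85 to 12.6 CPM. The kainate receptor auxiliary gene Neto1 gave 6.09, 4.78, 6.23 and 9.43 CPM in Control and 3.8, 4.46, 2.84 and 5.01 CPM in Mutant, with overlap (log2 fold change -0.72 ± 0.24, adjusted p = 0.0677). It was lower by the criteria of the study only. By the same criteria only, the scaffold genes Dlgap1, Dlgap3, Shank1 and Shank2 were higher. Their log2 fold changes were 0.87, 1.04, 0.68 and 0.93 (edgeR adjusted p of 0.0762, 0.0815, 0.111 and 0.0868). Pick1 and Homer1, which bind the tails of AMPA and of metabotropic receptors, and the postsynaptic scaffold gene Dlgap4 rose by 0.28, 0.42 and 0.70 on the log2 scale (edgeR adjusted p of 0.0431, 0.0348 and 0.0467). These 3 are expressed in many tissues besides nerve, and the groups overlapped for Dlgap4.

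Among partners of GABA and glycine receptors 1 of 12 tested genes passed, Gabarapl2, a trafficking and autophagy protein that rose (log2 fold change 0.33 ± 0.08, adjusted p = 0.0312 by edgeR). Gephyrin (Gphn) was at 18.8 to 24.2 CPM in the 8 embryos (log2 fold change 0.09 ± 0.10, adjusted p = 0.534), and Kctd12, an auxiliary subunit of GABA-B receptors, at 199 to 310 CPM (log2 fold change 0.17 ± 0.12, adjusted p = 0.35). Lhfpl3 of this list was not analysed here.

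Of 15 acetylcholine receptor partners, 12 were tested, 2 rose and 2 fell. Tmem35a, the chaperone NACHO that lets Chrna7 channels assemble, gave 5.32, 5.9, 6.54 and 6.01 CPM in Control and 36.4, 6.89, 21 and 12.2 CPM in Mutant embryos. All Mutants exceeded all Controls, K14J26 and K14J29 were again highest, and Tmem35a rose (log2 fold change 1.68 ± 0.43, adjusted p = 0.033 by edgeR). The chaperone Ric3 gave 9.8, 12.4, 11.3 and 11.8 CPM in Control and 12.1, 12.2, 13.4 and 11.9 CPM in Mutant (log2 fold change 0.13 ± 0.10, adjusted p = 0.387). Lypd1 and Ly6e encode membrane-anchored proteins of the Ly6 family that bind nicotinic receptors. Lypd1 fell from 16.2, 9.9, 16.4 and 25.7 CPM in Control to 3.27, 4.86, 5.03 and 8.77 CPM in Mutant (log2 fold change -1.64 ± 0.34, adjusted p = 0.0183), and Ly6e from 64.1, 54.7, 60.5 and 70.2 CPM to 27, 44.2, 37.3 and 41.5 CPM (log2 fold change -0.73 ± 0.15, adjusted p = 0.0168). For both genes the groups did not overlap, Control J7 was highest and K14J26 lowest. Lrp4, the agrin receptor of the neuromuscular junction and also a Wnt regulator of tooth epithelium, rose (log2 fold change 0.41 ± 0.10, adjusted p = 0.0308), whereas Rapsn, the protein that clusters muscle receptors, did not pass (log2 fold change -1.09 ± 0.37, adjusted p = 0.0718).

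The genes that make, move or break down the transmitters numbered 30, with 19 tested, none called higher and 1 called lower. That one, Colq, which anchors acetylcholinesterase at the neuromuscular junction, gave 1.88, 1.57, 2.75 and 3.28 CPM in Control and 0.529, 0.832, 1.63 and 1.09 CPM in Mutant, and its groups overlapped, K14J29 exceeding Control J5 (log2 fold change -1.20 ± 0.36, adjusted p = 0.0493 by edgeR). Several defining genes of cholinergic, glutamatergic and inhibitory terminals were at or near 0. Chat, Slc18a3 and Slc17a6 had no count, and Gad2 and Slc32a1 had 1 count at most in any embryo. Others of this kind were counted at low numbers and not tested. Slc17a7 had 5, 11, 4 and 6 counts in Control and 1, 7, 3 and 7 in Mutant. Slc17a8 had at most 6 counts, and Slc5a7 at most 10, in Control J3. Gad1, an enzyme of GABA synthesis that some epithelia also express, gave 0.997, 0.866, 0.986 and 0.574 CPM in Control and 4.47, 1.5, 2.01 and 1.2 CPM in Mutant. Its groups did not overlap, although the adjusted p missed the threshold (log2 fold change 1.42 ± 0.43, adjusted p = 0.0516).

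**Figure D5:**
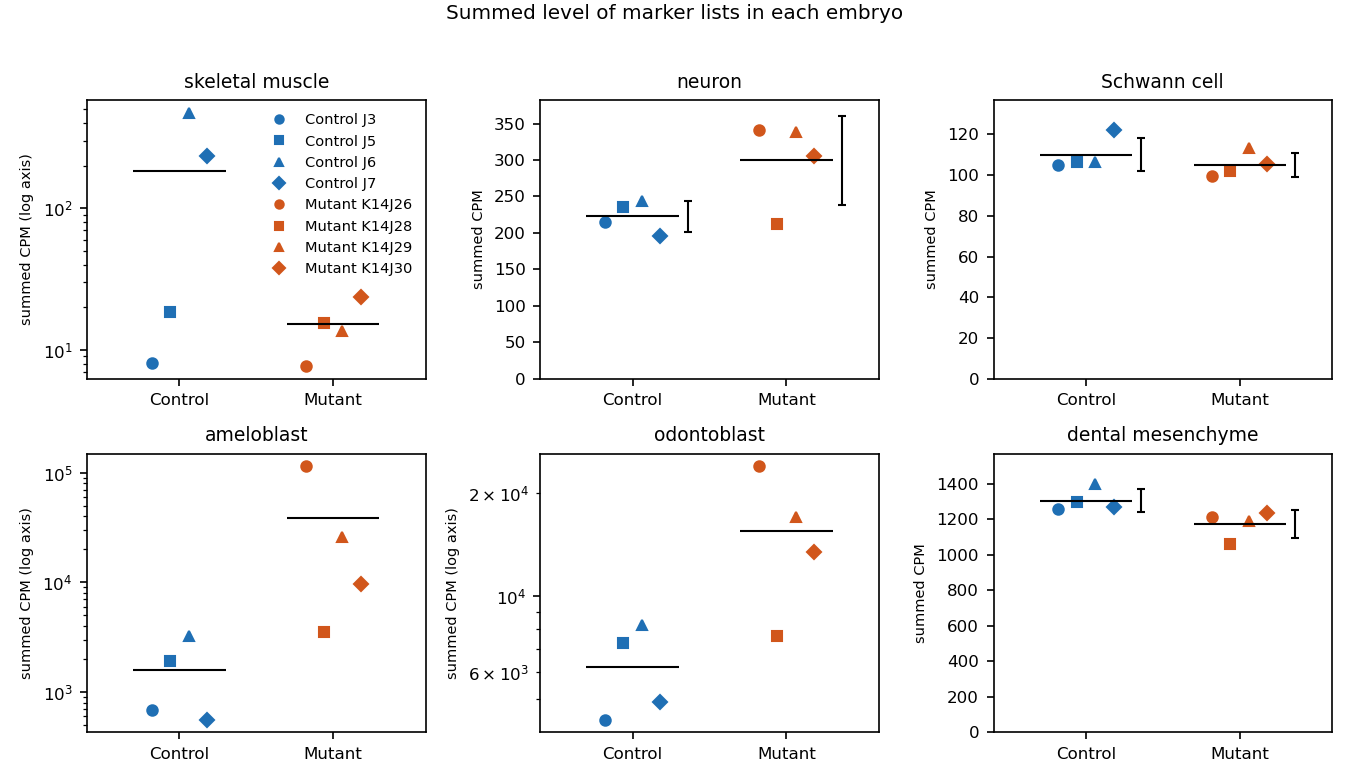
Summed CPM of 6 marker lists in each embryo, blue for Control and orange for Mutant, with the group mean as a line; muscle, ameloblast and odontoblast lists are on log axes, and on the linear axes the bar is 1 SD (n = 4). Muscle sums are highest in Controls J6 and J7, and ameloblast and odontoblast sums are highest in Mutants K14J26 and K14J29.

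Marker lists place these receptor transcripts beside the cell types that the molars hold. Neuronal markers summed to 215, 236, 244 and 196 CPM in Control and 341, 212, 339 and 306 CPM in Mutant, led by Tubb3, which rose with overlapping groups (log2 fold change 0.48 ± 0.14, adjusted p = 0.0448 by edgeR) and is the 1 called gene of 9 tested. The list did not move as one: by the criteria of the study Elavl4 was higher (log2 fold change 1.10 ± 0.36, adjusted p = 0.0638) and Nefl lower (log2 fold change -1.38 ± 0.45, adjusted p = 0.0632), the estimate of Gap43 was -0.33, and Elavl3 and Prph had 8 counts or fewer. The Schwann cell list summed to 105, 107, 107 and 122 CPM and 99.4, 102, 113 and 106 CPM, with Mbp most abundant and 1 of 8 genes, Erbb3, lower (log2 fold change -0.37 ± 0.11, adjusted p = 0.045). Among ameloblast markers 4 of 5 rose, with sums of 680, 1903, 3254 and 557 CPM in Control and 114400, 3503, 25820 and 9643 CPM in Mutant, and Amelx led. Odontoblast markers rose in 3 of 4 genes and osteoblast markers in 2 of 4, with Col1a1 and Alpl the most abundant of each. The dental mesenchyme list summed to 1259, 1295, 1400 and 1266 CPM in Control and 1213, 1061, 1187 and 1237 CPM in Mutant and had 5 of 6 genes lower (Pax9, Barx1, Msx1, Dlx1 and Dlx2), in the same direction as the 5 receptor genes that fell, while Vim, its most abundant gene, had a log2 fold change of 0.03. Dlx1 gave 67, 79.9, 81.2 and 87.3 CPM in Control and 43.8, 49.5, 42.4 and 43.4 CPM in Mutant (log2 fold change -0.82 ± 0.09, adjusted p = 0.00485). Of the dental epithelium list 1 of 6 genes rose, Krt14 (log2 fold change 0.96 ± 0.21, adjusted p = 0.0217). Epcam of the same list went the other way without overlap and was lower by the criteria of the study (log2 fold change -0.511 ± 0.155, adjusted p = 0.0527). No gene of the endothelial, macrophage and osteoclast, or erythroid lists was called among 13 tested. Of these, Cdh5 had the smallest adjusted p at 0.0642. The macrophage and osteoclast sum was highest in Mutant K14J28, at 1401 CPM against 217 to 477 CPM elsewhere. The part of these cell types in the receptor values was not tested. The fit with the muscle covariate cannot decide it for muscle, because that level is tied to group. Its mean log2 CPM was 4.65 in Control J6 and 3.96 in Control J7, and at most 0.786 in any other embryo.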

How the data were processed

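The authors deposited raw read counts per Ensembl gene, 1 file per embryo. According to the study's methods, libraries were made with a TruSeq v2 kit, a kind that does not mark strand, and single-end reads were trimmed with Trimmomatic, aligned to GRCm38 with STAR and counted with GenomicRanges; the submitters' processing notes name STAR, featureCounts and GRCm38.p3. Handling of multi-mapped reads is not given in the sources used here. Identifiers were matched to GENCODE M21 (42548 of 43629), which also gave types, exon lengths and overlaps. Genes counted 10 times or more in 2 or more embryos of a group were fitted in edgeR 4.0.16 (R 4.3.3) with TMM scaling and the quasi-likelihood test, without covariates, and p-values were adjusted by Benjamini-Hochberg over 17129 genes. Standard errors are the absolute log2 fold change over the square root of F. The labels give no litter, sex or batch. Pairs of embryos within a group differed beyond sampling noise (chi-square per degree of freedom 7.16 to 300.7). Alternatives were other scalings, DESeq2 1.42.0, other filters, embryos left out and a muscle covariate. Full values are given for members called, past the study's criteria, among the 10 highest per length or highest in their class; other genes named were picked from the members and lists after their values were seen. Members and lists were chosen with earlier results of these data known. Tamalin was matched through its synonym Grasp.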

Additional observations from a re-analysis of the deposited data

Results flagged for a closer look

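Within each group of 4, the embryo farthest from the rest was compared with the spread of the group for 23 members, which made 46 groups. In 2 of them the gap to the nearest embryo, divided by the whole range, exceeded Dixon's 95% limit for 4 samples; chance gives this in about 1 of 20 groups (5%), which over 46 groups is no fewer than were found. Control J7 was low for Gabbr1, at 88 CPM with the next Control at 98.35 CPM (ratio 0.871). The same embryo was low for Chrna7, at 1.182 CPM with the next Control at 2.144 CPM (ratio 0.874).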

How the results depend on the processing

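Of the 6 called members, none changed sign under any alternative: of 100 alternative values, 61 stayed past the threshold and 39 did not. Of the 22 tested members given in full, 369 alternative values included 305 with the same sign and side of the threshold, 39 that lost it, 10 that gained it and 15 that changed sign, all 15 in 6 members that were not called. With library size only, 855 genes and 0 members were called higher (4 members higher by the study's criteria; DESeq2 called 4). DESeq2 called 1718 genes lower and 4 members higher; without a filter 2 members were lower; with 10 counts required in all 4 embryos 3 members were higher by the study's criteria. Without Controls J6 and J7 together, 3 genes were called higher and 4 lower and 0 members in either direction (study's criteria: 666 genes lower, members 3 higher and 4 lower). The muscle covariate gave 40 genes in each direction and 0 members (study's criteria: 2 members higher). Fewer embryos or degrees of freedom enter these 2 fits; beyond that the cause was not tested. Leaving out 1 embryo gave 250 to 2479 genes higher, 170 to 1843 lower, 0 to 5 members higher, 2 to 3 lower and 2 to 6 members higher by the study's criteria. The sign changed as follows, and the cause was not tested. Library size only: Grik5 -0.06416, Glrb -0.08081. Upper-quartile scaling: Glrb -0.03047. J6 and J7 out: Grik4 0.06182, Glrb -0.07858. Muscle covariate: Grik4 0.05565, Glrb -0.06644. Leaving out 1 embryo, estimates ran from -0.01466 to 0.2019 for Gabbr1, -0.05885 to 0.1527 for Grik5, -0.6911 to 0.3819 for Grm4, -0.4661 to 0.009317 for Grik1 and -0.1062 to 0.07401 for Glrb. Gabra2 and Chrna6 could not be fitted where a filter removed them. Members under 10 counts are limited by depth.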

Other observations

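The antisense RNA gene Chrna1os, near Chrna1 on the other strand, gave 1.66, 2.02, 2.08 and 1.59 CPM in Control and 1.15, 1.53, 2.15 and 1.24 CPM in Mutant embryos.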
